A study of Caenorhabditis elegans with 32 samples.

Results

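The glutathione S-transferase genes of Caenorhabditis elegans were taken as the transcripts whose gene name in the isoform table starts with gst, gsto or gstk followed by a number. The rule found 41 transcripts, 1 for each of 41 genes, among 16422 transcripts of that table. All 41 were followed by their RefSeq identifier into the other tables. The estimate of gst-40 failed there (status HIDATA), which left 40 genes, and all 40 passed the filter on low values. The rule used names only and no measured value. It leaves out 6 further genes of the family that are named in the other tables and not in the isoform table.

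Glutathione S-transferases join the thiol peptide glutathione to electrophilic compounds such as lipid peroxidation products and xenobiotics, and the conjugates are then exported from the cell. Several members also reduce peroxides or carry out isomerisations. In C. elegans many members respond to the stress transcription factor SKN-1, and gst-4 is widely used as a reporter of that response. The nematode genome holds many gst genes of related sequence, some in rows of neighbours, beside a few genes of the zeta, omega and kappa classes.

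Every worm carried glp-1(e2141), a temperature-sensitive allele under which most germ cells are missing at the restrictive temperature, and mRNA of whole adults was sequenced at day 2 and day 12 of adulthood. The study asked how trimethylation of histone H3 at lysine 36 and the methyltransferase gene met-1 relate to expression change with age. Of 20 mRNA libraries in 10 groups of 2, the RNA interference experiment gives values for each of 8 libraries: glp-1(e2141) animals labelled L4440, a vector without insert that commonly serves as control of RNA interference by feeding, or labelled met-1 RNA interference, at both ages. A further 3 sets of animals have 1 deposited value per age for both libraries together, and therefore no spread: glp-1(e2141) animals grown alongside the chromatin samples with no treatment named (untreated), glp-1(e2141) controls of a mutant, and double mutants of genotype met-1(n4337); glp-1(e2141). All these groups share E. coli OP50 as food, carbenicillin and tetracycline on the plates, the glp-1 allele and the lack of most germ cells, so that no animal with a full germline is among them. Many animals were pooled in each library, and the labels do not say whether replicates were separate cultures, so that the spread behind every p-value is that among the samples at hand and could be technical. In bulk samples, fewer cells of a type and less RNA per cell cannot be told apart.

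Values are FPKM, which are fragment counts divided by transcript length and by the mapped total, so that genes can be compared by level. The RNA interference table names no unit, and its values were taken as FPKM. Relative read numbers of the 8 libraries, judged from the steps between low values, were 1.0 to 1.30, except for 0.356 in the second L4440 library of day 12. Between 14577 and 17234 transcripts per library reached an FPKM of 1. Summed met-1 was 7.80 and 5.03 FPKM in L4440 at day 2 and 10.7 and 29.8 at day 12, against 13.03 and 27.5, and 80.1 and 57.1, in the other arm, labelled as met-1 RNA interference. Summed met-1 was therefore higher, not lower, where the label says interference, and every direction between arms rests on those labels. Most of the difference lay in 1 of 2 met-1 transcripts, NM_182042. It held 5.82 and 2.13 FPKM at day 2 and 10.7 and 24.1 at day 12 in L4440. In the other arm it held 7.76 and 27.5, and 76.8 and 52.9. The transcript NM_058939 lay between 0.00193 and 5.71 FPKM in the 8 libraries, with no clear difference between arms. In the mutants met-1 stood at 6.67 and 4.79 FPKM at day 2 and day 12, against 5.41 and 6.34 in controls. A mutation can leave the mRNA level as it was, so this does not check the genotype. Summed germline and oocyte markers (8 genes) were at 5.50 to 8.28 FPKM in the 4 day 2 libraries and 18.5 to 26.9 in the 4 day 12 libraries, mostly from glh-1 and gld-1.

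Transcripts of the family took up a smaller share of all mRNA in the old animals of every set. In L4440 worms the 40 genes together made up 0.156% and 0.184% of all FPKM at day 2 and 0.0643% and 0.0698% at day 12. Shares among met-1-labelled worms were 0.170% and 0.185% at day 2 and 0.0730% and 0.0885% at day 12. The day 2 and day 12 libraries did not overlap in either arm. The 3 sets with 1 value per age went the same way, from 0.195% to 0.0793% in controls, from 0.188% to 0.0782% in met-1 mutants and from 0.357% to 0.141% in untreated animals, the last in a table that lists fewer transcripts. No test was made on these shares. The most abundant of the 40 genes also changed: gst-4 was highest in each of the 4 day 2 libraries, whereas gst-24, gst-1 or gst-22 was highest at day 12. The family gene gst-10, which the rule left out, stood above gst-4 in the first day 2 library of each arm. It held 646 and 695 FPKM there, against 440.0 and 494 for gst-4.

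**Figure D1:**
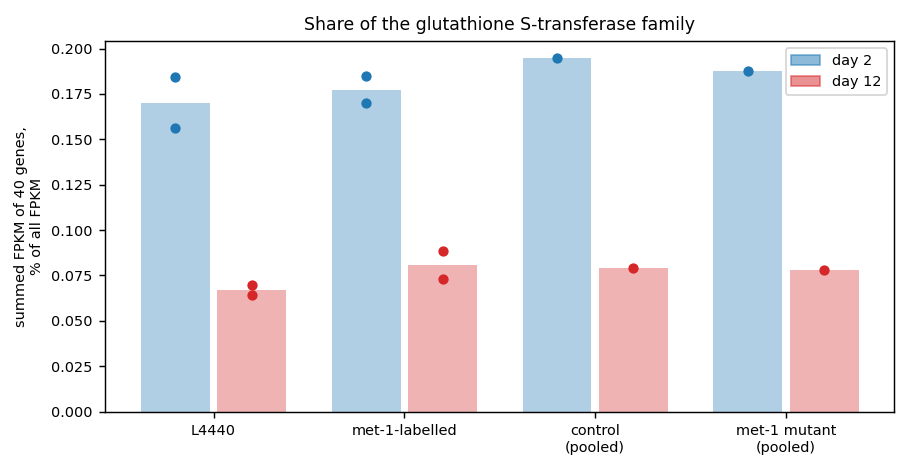
Share of the 40 glutathione S-transferase genes in all FPKM (%), by set of animals and age. Points are libraries in the L4440 and met-1-labelled sets and single deposited values in the control and met-1 mutant sets, and bars are their means; every day 12 point, the highest at 0.0885%, lies below every day 2 point, the lowest at 0.156%.

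In the 8 libraries members were called with age and not between the arms. In L4440 worms 17 of 40 genes fell from day 2 to day 12 and 1 rose, gst-24 (limma on log2(FPKM + 1) with libraries centred to one median, adjusted p below 0.05). Over all 18572 transcripts tested, 11.9% fell and 6.78% rose. The median change of the 40 genes was −1.06 on the log2 scale, against −0.07 over all transcripts. In met-1-labelled worms 16 genes fell and gst-24 rose, where 12.3% of all transcripts fell and 8.35% rose, and the median of the genes was −0.87 against −0.01. Both arms share 14 of the falling genes, which is 82.4% of those in L4440 worms and 87.5% of those in met-1-labelled worms. The genes gst-30, gst-32 and gst-33 passed in L4440 alone, gst-1 and gst-7 in met-1-labelled worms alone, and 20 genes in neither. As deposited, without centring, the median transcript was itself higher at day 12 by 0.46 in L4440 worms and 0.48 in met-1-labelled worms. The genes' medians were then −0.53 and −0.38, and 14 fell and 5 rose in L4440, and 12 fell and 6 rose in met-1-labelled worms. Deposited FPKM of the 2 ages did not overlap for 31 of 40 genes in L4440, with day 12 below day 2 in 21 and above in 10, and for 18 below and 13 above in met-1-labelled worms. The share of all transcripts without overlap was not counted. As deposited the median transcript was itself higher at day 12, so the counts are a description only.

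**Figure D2:**
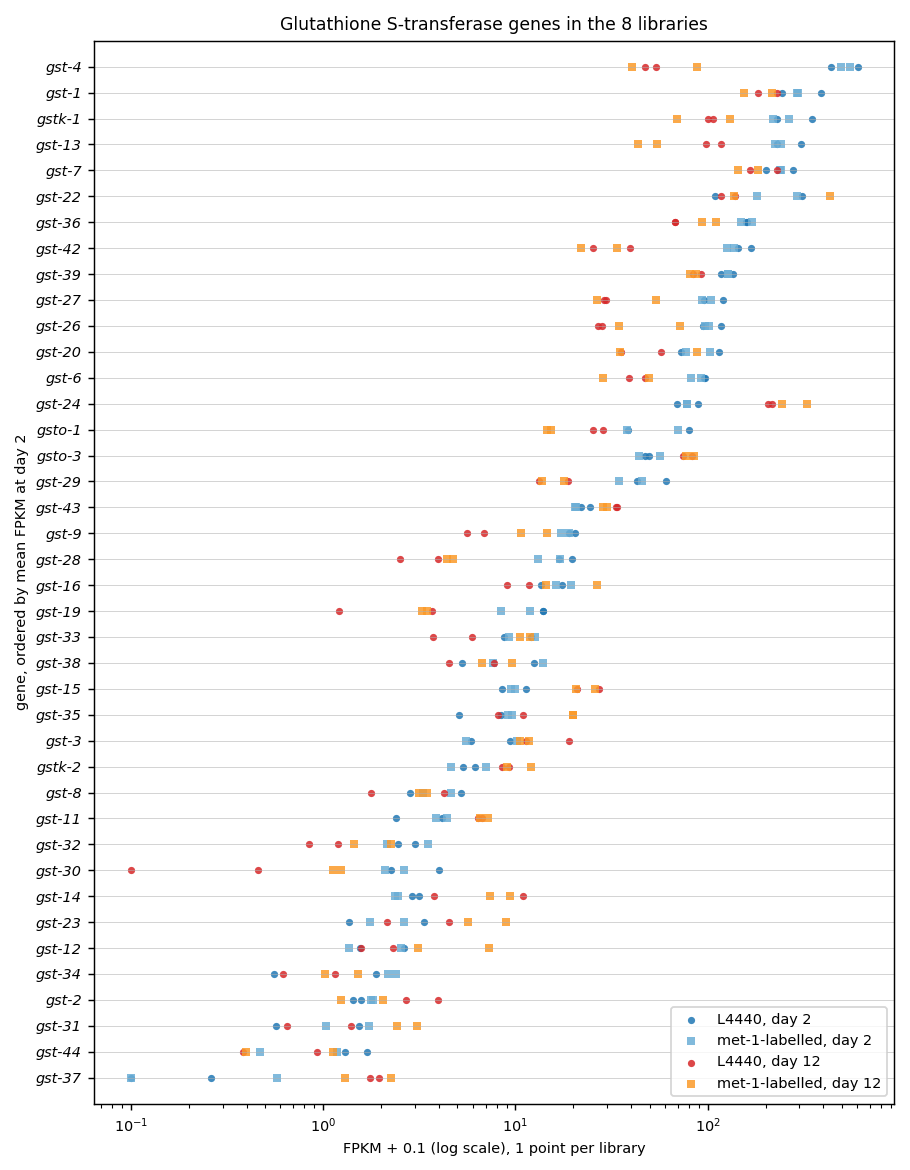
FPKM + 0.1 (log axis) of 40 glutathione S-transferase genes in the 8 libraries of the RNA interference experiment, 1 point per library, ordered by mean FPKM at day 2. Colours stand for age and arm; gst-4, at the top, drops from 440.0 FPKM or more in the day 2 libraries to 87.9 FPKM or less at day 12, while gst-24 lies to the right at day 12.

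The gene gst-4 (chromosome IV, 10142210 to 10142978 in the coordinates of the tables) was the most abundant of the 40 genes in the young animals of every set but the untreated ones, where gst-13 at 541 FPKM stood above it at 502. In L4440 worms it was present at 440.0 and 605 FPKM at day 2 and 53.99 and 47.3 FPKM at day 12, and in met-1-labelled worms at 494 and 553 FPKM at day 2 and 87.9 and 40.2 FPKM at day 12. Every old library lay far below every young one. The gene fell, with a log2 change of −3.85 ± 0.37 (SE, limma adjusted p = 0.00218) in L4440 worms and −3.60 ± 0.37 (SE, limma adjusted p = 0.00234) in met-1-labelled worms, which took it from the first to the 10th place among the 40 genes by mean FPKM. Next in level among the gst genes that fell in both arms was gst-13 (chromosome II, 9231461 to 9232196), at 228 and 306 FPKM at day 2 and 98.4 and 117 FPKM at day 12 in L4440 worms and 224 and 241 FPKM at day 2 and 43.4 and 54.2 FPKM at day 12 in met-1-labelled worms. Its young libraries were alike in both arms, and its old libraries were lower in both. It fell, with changes of −1.82 ± 0.22 (SE, limma adjusted p = 0.00398) and −2.73 ± 0.22 (SE, limma adjusted p = 0.00114). The gene gst-36 (chromosome X, 9861698 to 9862889) stood at 157 and 160.4 FPKM at day 2 and 67.2 and 67.6 FPKM at day 12 in L4440 worms and at 149 and 169.6 FPKM at day 2 and 93.7 and 110.0 FPKM at day 12 in met-1-labelled worms. Replicates of it lay close together, and it fell, with changes of −1.75 ± 0.14 (SE, limma adjusted p = 0.00134) in L4440 worms and −1.13 ± 0.14 (SE, limma adjusted p = 0.00420) in met-1-labelled worms.

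Members of the small classes did not all move alike. The zeta-class gene gst-42 (chromosome X, 11726417 to 11727720) encodes the predicted maleylacetoacetate isomerase of tyrosine breakdown. It stood at 143 and 168 FPKM at day 2 and 25.1 and 39.3 FPKM at day 12 in L4440 worms and 126 and 136 FPKM at day 2 and 21.8 and 33.5 FPKM at day 12 in met-1-labelled worms. It fell, with changes of −2.80 ± 0.30 (SE, limma adjusted p = 0.00290) and −2.73 ± 0.30 (SE, limma adjusted p = 0.00284), with no overlap between ages. The second zeta-class gene, gst-43, was present at 21.9 and 24.5 FPKM at day 2 and 33.7 and 33.4 FPKM at day 12 in L4440 worms and at 20.5 and 20.3 FPKM at day 2 and 28.3 and 30.0 FPKM at day 12 in met-1-labelled worms. All its old libraries were above all young ones as deposited (limma adjusted p = 0.0266 without centring in L4440), but by about the shift of the median transcript, and relative to that it differed by −0.01 ± 0.13 and 0.00 ± 0.13 (limma adjusted p = 0.972 and 0.990).

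Of the kappa-class genes, whose mammalian relative is found in mitochondria and peroxisomes, gstk-1 (chromosome II, 9656670 to 9657584) was the abundant one, at 228 and 348 FPKM at day 2 and 100.2 and 106 FPKM at day 12 in L4440 worms and 219 and 266 FPKM at day 2 and 69.4 and 131 FPKM at day 12 in met-1-labelled worms. Its ages did not overlap, and it fell, with changes of −1.97 ± 0.37 (SE, limma adjusted p = 0.0171) and −1.82 ± 0.37 (SE, limma adjusted p = 0.0208). The kappa-class gene gstk-2 was low, at 6.08 and 5.22 FPKM at day 2 and 9.17 and 8.39 FPKM at day 12 in L4440 worms and 6.90 and 4.54 FPKM at day 2 and 8.91 and 11.9 FPKM at day 12 in met-1-labelled worms, and did not pass (0.03 ± 0.25 and 0.28 ± 0.25, limma adjusted p = 0.951 and 0.498). Omega-class enzymes act as thiol transferases in mammals. The omega gene gsto-1 (chromosome III, 7945523 to 7946947) stood at 80.0 and 38.4 FPKM at day 2 and 25.3 and 28.5 FPKM at day 12 in L4440 worms and 70.4 and 38.1 FPKM at day 2 and 15.3 and 14.5 FPKM at day 12 in met-1-labelled worms. Its day 2 replicates differed about as much as the ages did in L4440, although the ages did not overlap. It fell, with changes of −1.55 ± 0.40 (SE, limma adjusted p = 0.0485) and −2.22 ± 0.40 (SE, limma adjusted p = 0.0143). The omega gene gsto-3 was present at 49.4 and 47.0 FPKM at day 2 and 82.7 and 74.5 FPKM at day 12 in L4440 worms and 56.2 and 43.9 FPKM at day 2 and 76.7 and 85.04 FPKM at day 12 in met-1-labelled worms. Its old libraries were higher as deposited, and relative to the median it did not pass (0.17 ± 0.16 and 0.20 ± 0.16, limma adjusted p = 0.516 and 0.431).

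A row of 6 neighbours on chromosome II, gst-26, gst-27, gst-28, gst-29, gst-39 and gst-31 in that order, held 5 genes that fell in each arm, all but gst-31. In L4440 gst-26 was at 94.6 and 117 FPKM at day 2 and 26.7 and 28.0 FPKM at day 12, and in met-1-labelled worms at 97.1 and 102 FPKM at day 2 and 34.6 and 72.0 FPKM at day 12. For gst-27 the values were 95.4 and 119.7 FPKM at day 2 and 28.7 and 29.7 FPKM at day 12 in L4440 worms and 93.3 and 103.9 FPKM at day 2 and 26.4 and 53.4 FPKM at day 12 in met-1-labelled worms. In both genes the young libraries were above all old ones, and of the old libraries, replicate 2 of the met-1-labelled arm was the highest. They fell, with changes of −2.43 ± 0.35 (SE, limma adjusted p = 0.00745) and −2.36 ± 0.34 (SE, limma adjusted p = 0.00757) in L4440, and of −1.47 ± 0.35 (SE, limma adjusted p = 0.0360) and −1.85 ± 0.34 (SE, limma adjusted p = 0.0159) in met-1-labelled worms. At a lower level, gst-28 was at 16.8 and 19.7 FPKM at day 2 and 2.41 and 3.84 FPKM at day 12 in L4440 worms and 13.1 and 16.9 FPKM at day 2 and 4.66 and 4.29 FPKM at day 12 in met-1-labelled worms, and fell, with changes of −2.77 ± 0.25 (SE, limma adjusted p = 0.00189) and −2.03 ± 0.25 (SE, limma adjusted p = 0.00424). For gst-29 the values were 42.98 and 60.8 FPKM at day 2 and 13.2 and 18.7 FPKM at day 12 in L4440 worms and 34.3 and 45.5 FPKM at day 2 and 13.7 and 17.8 FPKM at day 12 in met-1-labelled worms, and it fell, with changes of −2.17 ± 0.29 (SE, limma adjusted p = 0.00614) and −1.78 ± 0.29 (SE, limma adjusted p = 0.0108). With 118 and 135 FPKM at day 2 and 83.5 and 92.3 FPKM at day 12 in L4440 worms and 127 and 128 FPKM at day 2 and 80.8 and 87.2 FPKM at day 12 in met-1-labelled worms, gst-39 changed least of the 5, by −1.04 ± 0.13 and −1.08 ± 0.13 (limma adjusted p = 0.00516 and 0.00422). The tables list these genes with gst-32, gst-34 and gst-35, 9 members in all, under 1 merged locus on chromosome II, 14913789 to 15278800. Neighbours of like sequence can share reads, so that levels of single genes in such rows are uncertain.

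Other rows of neighbours were mixed. By gene order in the RefSeq table of assembly WBcel235, 24 of 49 family genes stand in rows of at least 3. In the row gst-20, gst-24, gst-15, gst-14, gst-12, gst-16 and gst-19, followed by 2 genes that are not members, gst-19 fell in both arms and gst-24 rose in both. In the row gst-6, gst-7 and gst-8, gst-6 fell in both arms and gst-7 in the met-1-labelled arm. In gst-32, gst-34 and gst-35, gst-32 fell in L4440 alone. Between gst-3, gst-2 and gst-4 on chromosome IV, gst-4 fell in both arms and the other two did not pass in either.

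**Figure D3:**
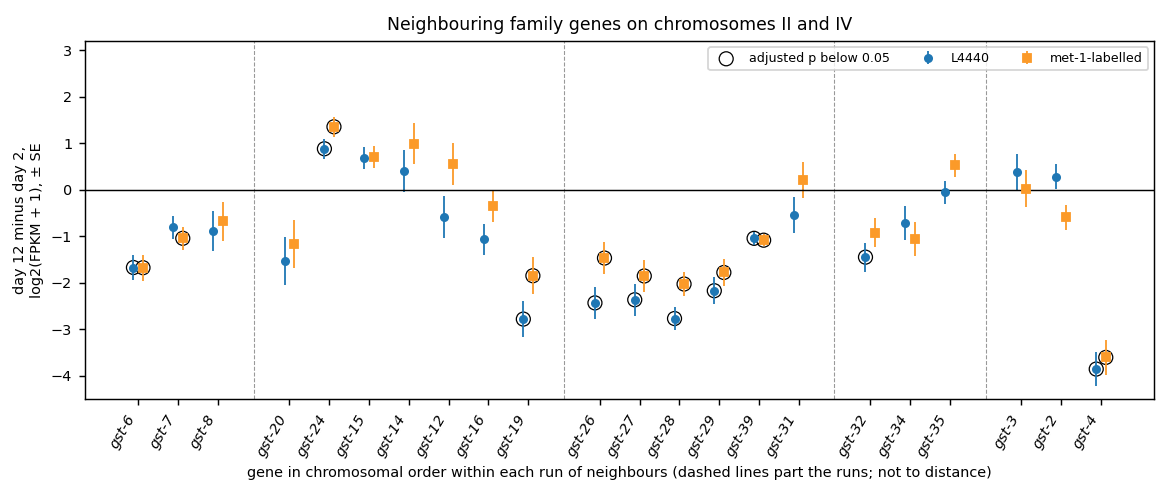
Log2 difference of FPKM + 1 between day 12 and day 2, relative to the median transcript, for members in 5 rows of neighbouring family genes, in chromosomal order and not to distance. Error bars are the limma SE with 2 libraries per age and arm, and circles mark adjusted p below 0.05; gst-26 to gst-39 lie below 0 in both arms, while gst-24 lies above 0 beside gst-20 below it.

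Of the remaining genes that fell in both arms, gst-6 (chromosome II, 4879902 to 4880972) was present at 95.2 and 96.4 FPKM at day 2 and 38.8 and 47.1 FPKM at day 12 in L4440 worms and at 92.2 and 81.6 FPKM at day 2 and 28.4 and 49.6 FPKM at day 12 in met-1-labelled worms, and it fell, with changes of −1.67 ± 0.28 (SE, limma adjusted p = 0.0119) and −1.68 ± 0.28 (SE, limma adjusted p = 0.0111). The low gene gst-19 (chromosome II, 13625492 to 13627049) was at 13.9 and 13.7 FPKM at day 2 and 3.57 and 1.11 FPKM at day 12 in L4440 worms and 11.8 and 8.33 FPKM at day 2 and 3.35 and 3.17 FPKM at day 12 in met-1-labelled worms. It fell, with changes of −2.78 ± 0.39 (SE, limma adjusted p = 0.00696) and −1.85 ± 0.39 (SE, limma adjusted p = 0.0248), and its ages did not overlap. For gst-9 (chromosome II, 4891574 to 4893472) the libraries held 18.98 and 20.3 FPKM at day 2 and 5.49 and 6.73 FPKM at day 12 in L4440 worms and 18.9 and 17.3 FPKM at day 2 and 14.4 and 10.6 FPKM at day 12 in met-1-labelled worms. The old met-1-labelled libraries were above the old L4440 libraries, and the gene fell, with changes of −2.07 ± 0.19 (SE, limma adjusted p = 0.00205) in L4440 worms and −1.002 ± 0.19 (SE, limma adjusted p = 0.0184) in met-1-labelled worms. The gene gst-30 was near the lower limit, at 2.14 and 3.92 FPKM at day 2 and 0.361 and 0 FPKM at day 12 in L4440 worms and 2.54 and 2.00 FPKM at day 2 and 1.02 and 1.14 FPKM at day 12 in met-1-labelled worms, with a change of −2.28 ± 0.34 (SE, limma adjusted p = 0.00808) in L4440 worms and −1.14 ± 0.34 (SE, limma adjusted p = 0.0676) in met-1-labelled worms; a value of 0 may be a failed estimate.

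Abundant members that did not pass in L4440 included gst-1, a pi-like transferase gene, at 243 and 387 FPKM at day 2 and 182 and 228 FPKM at day 12 in L4440 worms and 291 and 295 FPKM at day 2 and 154 and 215 FPKM at day 12 in met-1-labelled worms. Its old libraries were below the young ones in both arms, and it passed in the met-1-labelled arm, at −1.17 ± 0.30 (SE, limma adjusted p = 0.0423), but not in L4440, at −1.11 ± 0.30 (SE, limma adjusted p = 0.0534). For gst-7 the libraries held 201.2 and 277 FPKM at day 2 and 165 and 228 FPKM at day 12 in L4440 worms and 239.6 and 237 FPKM at day 2 and 144 and 182 FPKM at day 12 in met-1-labelled worms. The ages overlapped in L4440 worms and not in met-1-labelled worms, with changes of −0.80 ± 0.25 (SE, limma adjusted p = 0.0815) and −1.04 ± 0.25 (SE, limma adjusted p = 0.0359). The gene gst-22 varied more between replicates than between ages, at 109 and 309 FPKM at day 2 and 139 and 118 FPKM at day 12 in L4440 worms and 179.5 and 293 FPKM at day 2 and 136 and 435 FPKM at day 12 in met-1-labelled worms (−1.04 ± 0.72 and −0.40 ± 0.72, limma adjusted p = 0.380 and 0.752). Its ages overlapped in both arms. For gst-38 the libraries held 5.20 and 12.4 FPKM at day 2 and 7.60 and 4.39 FPKM at day 12 in L4440 worms and 7.52 and 13.9 FPKM at day 2 and 6.61 and 9.56 FPKM at day 12 in met-1-labelled worms. For gst-8 they held 2.73 and 5.11 FPKM at day 2 and 4.17 and 1.68 FPKM at day 12 in L4440 worms and 4.51 and 3.23 FPKM at day 2 and 3.07 and 3.39 FPKM at day 12 in met-1-labelled worms. The ages of both genes overlapped in both arms.

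The gene gst-24 (chromosome II, 13610387 to 13611202) went the other way. It was present at 69.4 and 89.0 FPKM at day 2 and 215 and 205 FPKM at day 12 in L4440 worms and at 78.1 and 78.3 FPKM at day 2 and 243 and 329 FPKM at day 12 in met-1-labelled worms. All old libraries were above all young ones. Relative to the median transcript it rose by 0.88 ± 0.21 (SE, limma adjusted p = 0.0377) in L4440 worms and 1.35 ± 0.21 (SE, limma adjusted p = 0.00875) in met-1-labelled worms, and it moved from the 14th to the first place among the 40 genes. The gene gst-14 stood at 2.81 and 3.04 FPKM at day 2 and 3.68 and 10.9 FPKM at day 12 in L4440 worms and 2.27 and 2.35 FPKM at day 2 and 7.31 and 9.30 FPKM at day 12 in met-1-labelled worms, and did not pass (0.40 ± 0.45 and 0.99 ± 0.45, limma adjusted p = 0.588 and 0.187). Its old libraries were above the young ones in both arms as deposited. For gst-37, listed at 0 in the first day 2 library of each arm, the old libraries held 1.202 to 2.15 FPKM.

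The members not yet described were low or intermediate in level. The genes gst-32 and gst-33 fell in L4440 worms alone, gst-32 from 2.36 and 2.90 to 0.742 and 1.098 FPKM, with a change of −1.45 ± 0.31 (SE, limma adjusted p = 0.0280), and gst-33 from 8.58 and 11.9 to 3.61 and 5.87 FPKM, with a change of −1.51 ± 0.30 (SE, limma adjusted p = 0.0204). Ages did not overlap for either in that arm, and in the met-1-labelled arm the changes were −0.92 ± 0.31 and −0.45 ± 0.30 (limma adjusted p = 0.0967 and 0.359). Of genes not called in either arm, gst-20 stood at 72.2 and 115 FPKM at day 2 and 35.2 and 56.8 FPKM at day 12 in L4440 worms and 77.4 and 102 FPKM at day 2 and 34.7 and 88.0 FPKM at day 12 in met-1-labelled worms. Its ages overlapped in the met-1-labelled arm alone. The gene gst-15 was above its young level in all old libraries as deposited, at 8.42 and 11.3 FPKM at day 2 and 20.9 and 27.2 FPKM at day 12 in L4440 worms and 9.38 and 9.83 FPKM at day 2 and 20.6 and 26.0 FPKM at day 12 in met-1-labelled worms, and relative to the median transcript it did not pass (0.68 ± 0.24 and 0.70 ± 0.24, limma adjusted p = 0.110 and 0.0978). For the other 11 of these genes, gst-2, gst-3, gst-11, gst-12, gst-16, gst-23, gst-31, gst-34, gst-35, gst-37 and gst-44, changes ranged from −1.16 to 0.82 in L4440 worms and from −1.06 to 0.91 in met-1-labelled worms, and none passed.

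By level at day 2, as the mean of 4 libraries, 11 genes stood at 100 FPKM or more, 12 at 10 to 100, 16 at 1 to 10 and 1 below 1. In L4440 8 of the first 11, 7 of the 12 and 2 of the 16 fell, and in met-1-labelled worms 10, 6 and 0 did. The same libraries gave the level and the change, and the share of all transcripts called at each level was not counted. The counts are therefore a description and are not shown to be particular to the family.

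Calls of 6 genes, gst-4, gst-13, gst-28, gst-36, gst-39 and gst-42, were made in both arms under each of 15 alternative settings of scaling, filter, pseudocount, pairing and left-out library. In L4440 the other falling genes called under each setting that could be fitted were gst-9, gst-19, gst-26, gst-27, gst-29 and gst-30. The rise of gst-24 in L4440 was lost without any 1 of the 4 L4440 libraries or either day 2 met-1-labelled library (limma adjusted p = 0.0508 to 0.134), and in met-1-labelled worms without either of their day 2 libraries (0.0528 and 0.0561). In L4440 the fall of gst-32 was lost without any 1 of the L4440 libraries (limma adjusted p = 0.0749 to 0.125), that of gst-33 without the second day 2 or the first day 12 one (0.0740 and 0.0932), and that of gst-6 without either day 2 or the first day 12 one (0.0533 to 0.0616). The fall of gstk-1 was lost there without the second day 2 or either day 12 L4440 library (limma adjusted p = 0.0704 to 0.0783), and that of gsto-1 without the first day 2 L4440 library or any 1 of the 4 day 12 libraries (0.0837 to 0.154). In met-1-labelled worms the number that fell dropped from 16 to 7 without either day 2 met-1-labelled library, to 10 without the first and to 11 without the second day 12 one. There gst-19 and gst-7 were lost without any 1 of the 4 met-1-labelled libraries (limma adjusted p = 0.0758 to 0.128 and 0.0660 to 0.148), and gst-1 also without either day 12 L4440 library (0.0614 to 0.167). The falls of gst-6 and gst-27 were lost without either day 2 met-1-labelled library (limma adjusted p = 0.0546 to 0.0693 and 0.0709 to 0.0853), and that of gst-26 also without any 1 L4440 library (0.0564 to 0.142). The falls of gst-9 and gstk-1 were lost without either day 2 met-1-labelled library, and also without the second day 12 one for gst-9 and the first for gstk-1 (limma adjusted p = 0.0808 to 0.103 and 0.0592 to 0.105). The fall of gsto-1 was lost without the first day 2 or either day 12 met-1-labelled library, and that of gst-29 without the second day 2 or the first day 12 one (limma adjusted p = 0.0674 to 0.0718 and 0.0561 to 0.0650). Scaling and filter ended some of the same calls. In L4440 the fall of gsto-1 was lost on the values as deposited, after quantile normalization and with libraries set to an equal summed FPKM (limma adjusted p = 0.119, 0.0780 and 0.0984). That of gst-32 was lost on the values as deposited and with an equal summed FPKM (limma adjusted p = 0.0731 and 0.0533), that of gst-33 on the values as deposited (0.0521), and the rise of gst-24 with no filter on low values (0.0652). In met-1-labelled worms the fall of gst-9 was lost on the values as deposited and with an equal summed FPKM (limma adjusted p = 0.105 and 0.0664). The falls of gst-1, gst-7 and gst-26 were lost there on the values as deposited (limma adjusted p = 0.113, 0.124 and 0.0735).

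The comparison of the arms asked whether the family differed between L4440 and met-1-labelled worms at either age. Summed met-1 was higher, not lower, in the met-1-labelled libraries. The comparison is therefore of labels and cannot show what a loss of met-1 would do. No member was called at day 2 (limma, 0 of 40 with an unadjusted p below 0.05, against 3.47% of all transcripts), where 0.0754% of all transcripts were called in each direction. At day 12 no member was called either, against 0.307% of all transcripts higher and 0.194% lower in met-1-labelled worms, and 7 of 40 members had an unadjusted p below 0.05, as did 10.3% of all transcripts. The closest was gst-13, chosen after its values were seen, at 98.4 and 117 FPKM in the old L4440 libraries and 43.4 and 54.2 in the old met-1-labelled ones. These do not overlap, and the difference was −1.14 ± 0.22 (SE, limma adjusted p = 0.165). Next, gst-9 differed by 0.91 ± 0.19 (limma adjusted p = 0.213). The median over the 40 genes was −0.06 at day 2 and 0.25 at day 12, against −0.04 and 0.02 over all transcripts. No member passed the test of a difference in age change between the arms (limma interaction, smallest adjusted p = 0.574, 4 of 40 with an unadjusted p below 0.05, against 5.69% of all transcripts), where 0.264% of all transcripts were called higher and 0.108% lower. Genes that passed in 1 arm alone are therefore not shown to differ between the arms.

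In the 3 sets with 1 value per age, differences are described by size and past 2-fold means a log2 difference of FPKM + 1 of at least 1. In control animals 13 of 38 genes were lower past 2-fold at day 12 and 2 were higher, where 15.6% of all transcripts were lower and 14.2% higher. In met-1 mutants 14 of 39 were lower and 1 higher (17.9% and 17% of all), and in untreated animals 15 of 38 were lower and 2 higher (13% and 7.55% of all). The members' median differences were −0.75, −0.64 and −0.92, against 0.00, −0.01 and −0.08 over all transcripts. In the authors' deposited table on untreated animals, 24 of 41 genes have a q-value below 0.05 and are lower at day 12 and 4 are higher, against 18.6% and 13% of all transcripts. The smallest q-value of the authors' deposited table, 9.44e-21, is shared by 732 transcripts, 8 of them members.

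The 5 age comparisons share no library. Changes in the L4440 and met-1-labelled sets are relative to the median transcript, and those of the other 3 sets are as deposited. On these values 22 of 40 genes were lower at day 12 in all 5, as were 27.7% of 12666 transcripts. Of these genes, 11 were lower by over 2-fold in all 5, against 6.06% of transcripts: gst-4, gst-6, gst-13, gst-19, gst-26, gst-27, gst-28, gst-30, gst-36, gst-42 and gstk-1. As deposited, gst-26, gst-30 and gst-36 changed by −0.98, −0.65 and −0.64 in met-1-labelled worms, short of 2-fold. Higher in all 5 were gst-3, gst-14, gst-15, gst-24 and gst-37, 5 of 40 against 24% of transcripts, and none of them by over 2-fold in all 5, against 3.19%. Old animals of every set had less gst-4, which went from 675 to 92.9 FPKM in controls, 807 to 60.5 in met-1 mutants and 502 to 55.7 in untreated animals. For gst-42 the values went from 333 to 36.2, 259 to 28.1 and 202 to 31.2 FPKM in the same order. For gst-27 they went from 365 to 32.2, 307 to 32.5 and 339.9 to 49.2 FPKM, from a young level in controls 3.40 times that in L4440 worms. For gst-24 the values went from 99.2 to 182 FPKM in controls, 112 to 122 in mutants and 97.8 to 136 in untreated animals. Directions differed between sets for the other 13 of the 40 genes. Among them, gst-8 went from 0.621 to 1.67 FPKM in controls and 0.465 to 1.25 in untreated animals. Its fitted changes were −0.89 ± 0.42 in L4440 worms and −0.68 ± 0.42 in met-1-labelled worms and did not pass (limma adjusted p = 0.217 and 0.329). The level of gsto-3 in untreated animals, 0.966 to 0 FPKM, stood apart from 50.5 to 65.0 in controls, and a listed 0 there can be a failed estimate. Over the 40 genes, age differences of pairs of sets correlated with r from 0.756 to 0.921, a description over genes that are not independent.

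**Figure D4:**
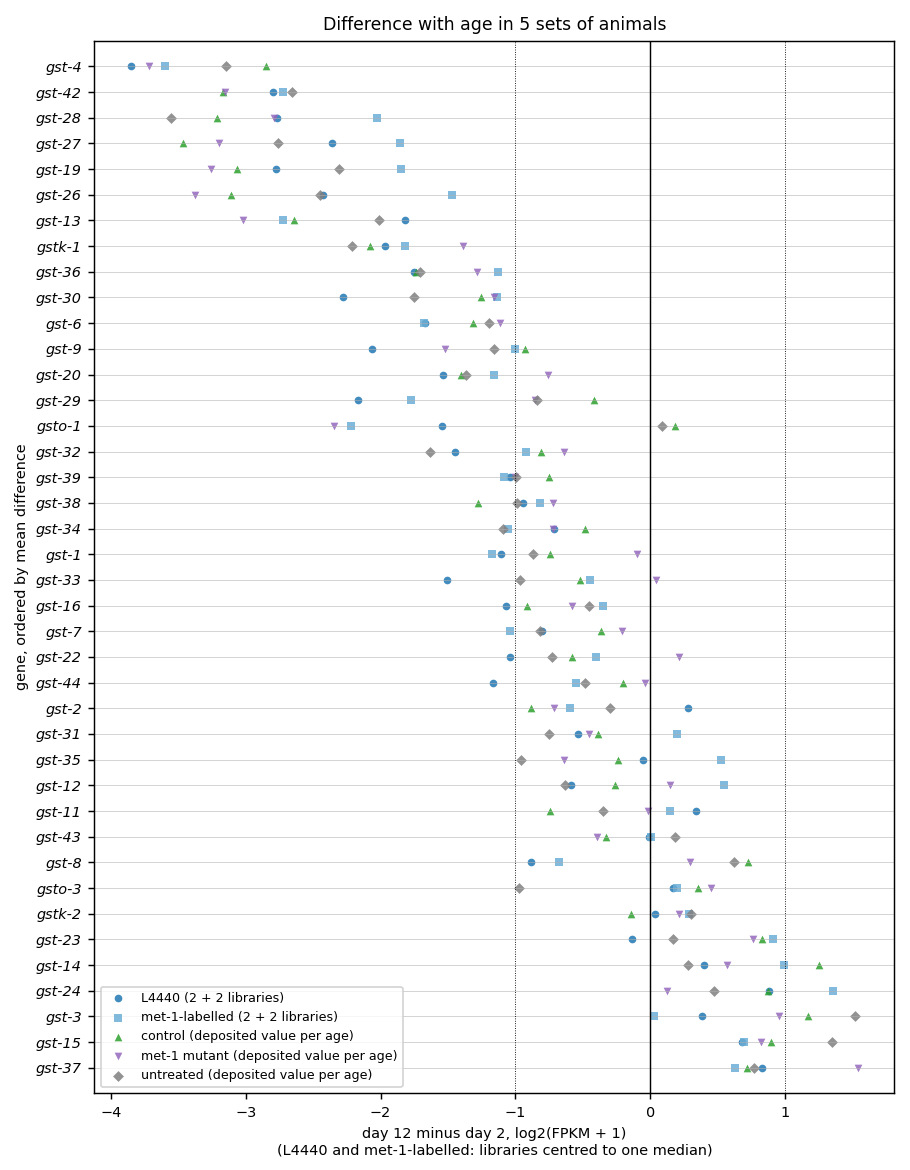
Log2 difference of FPKM + 1 between day 12 and day 2 for 40 glutathione S-transferase genes in 5 sets of animals, ordered by the mean over the sets. Circles and squares are fitted changes from 2 libraries per age, relative to the median transcript, and the other symbols come from 1 deposited value per age; all 5 symbols lie below −1, the dotted line, for 11 genes, and gsto-1 has symbols on both sides of 0.

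The mutant was set against its control at each age without replicates. At day 2, 1 of 37 genes, gsto-1, was higher past 2-fold in met-1 mutants and none was lower, where 11.2% of all transcripts were higher and 4.39% lower. At day 12, 4 of 39 were higher, gst-16, gst-32, gst-37 and gst-38, and 1 was lower, gsto-1, against 10.8% and 4.76% of all transcripts. The medians were 0.26 and 0.16 on the log2 scale, against 0.17 and 0.18 over all transcripts. The gene gst-38 stood at 17.6 and 6.65 FPKM in controls at day 2 and day 12 and at 36.1 and 21.5 in mutants. For gst-16 the values were 17.2 and 8.67 FPKM in controls and 32.8 and 21.6 in mutants. The gene gsto-1 held 11.9 and 13.7 FPKM in controls and 34.4 and 5.98 in mutants. It was lower with age in mutants, in L4440 worms and in met-1-labelled worms, and nearly level in controls and in untreated animals, at 14.8 to 15.7 FPKM. Young L4440 worms had 4.97 times the gsto-1 FPKM of young controls. Tables were made separately, so that levels set across them may differ by their scaling.

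**Figure D5:**
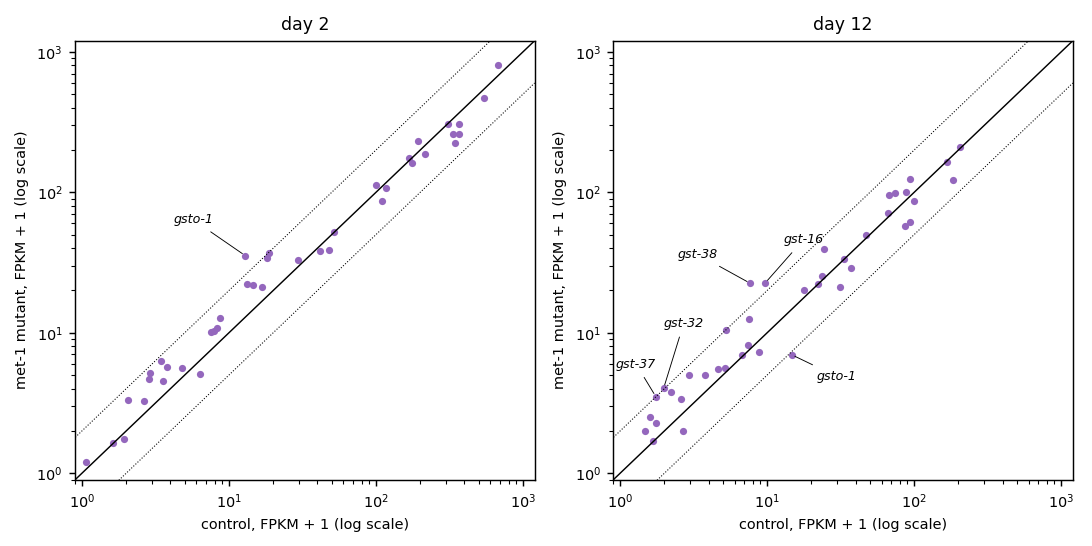
FPKM + 1 of glutathione S-transferase genes in met-1 mutants (y axis, log) against control animals (x axis, log) at day 2 and day 12, 1 deposited value per group. The solid line marks equal values and dotted lines a 2-fold difference; gsto-1 lies above the upper line at day 2 and below the lower line at day 12.

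Other genes that handle glutathione were counted from lists chosen with earlier results of these data known, and 11.9% of all transcripts fell and 6.78% rose in L4440. Of 8 tested transcripts for glutathione synthesis and recycling, 4 fell in each arm and none rose. The gene gcs-1, the first enzyme of glutathione synthesis and a SKN-1 target, fell from 115 and 125 to 68.8 and 65.6 FPKM in L4440 worms and from 118 and 123 to 53.6 and 52.3 in met-1-labelled worms. Its ages did not overlap, and the changes were −1.35 ± 0.11 (SE, limma adjusted p = 0.00152) and −1.66 ± 0.11 (limma adjusted p = 0.000814). The NADPH-forming enzymes also fell: gspd-1, the glucose phosphate dehydrogenase (−1.31 in L4440 worms and −1.24 in met-1-labelled worms), and 2 transcripts of idh-1, an isocitrate dehydrogenase (−2.30 and −2.53 in L4440, −2.40 and −2.29 in met-1-labelled worms). Of 5 tested glutathione peroxidase transcripts, gpx-5 (−2.36 and −2.55) and gpx-7 (−2.11 and −2.47) fell in both arms and gpx-1 (−1.28) in met-1-labelled worms alone. None of 7 glutaredoxin and 3 glyoxalase transcripts passed in either arm.

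Among 9 transcripts of conjugate exporters, mrp-2 rose (1.41 and 1.65 in L4440 worms and met-1-labelled worms), mrp-4 fell (−1.68 and −2.20), and 1 transcript of mrp-1 fell in met-1-labelled worms (−0.87). Among 22 tested transcripts of regulators, 2 rose and 2 fell in L4440 worms and 3 rose and 2 fell in met-1-labelled worms. Over all transcripts, 6.78% rose and 11.9% fell in L4440 worms and 8.35% rose and 12.3% fell in met-1-labelled worms. The counts of exporters and regulators are not shown to differ from these shares, and the calls below are given as values of single transcripts. The skn-1 transcript NM_171347 fell from 56.7 and 87.3 to 26.1 and 23.97 FPKM in L4440 (−1.98, limma adjusted p = 0.00958) and fell in met-1-labelled worms (−1.85, adjusted p = 0.0114), whereas NM_171345 did not pass (0.21 and 0.12, limma adjusted p = 0.692 and 0.834). Of the insulin-pathway factor daf-16, NM_001026422 and NM_001026427 rose in both arms (0.84 and 1.31 in L4440, 1.12 and 1.58 in met-1-labelled worms). The kinase gene sgk-1 rose in met-1-labelled worms (0.62), the oxidase gene bli-3 fell there (−1.05), and aha-1 fell in L4440 (−0.91).

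Markers of several tissues also moved with age, and not all in the direction of the family. Of 4 tested hypodermis marker transcripts 2 fell in L4440 worms and 3 in met-1-labelled worms, and of 6 intestine transcripts 1 rose and 1 fell in each arm. The summed level of 5 hypodermis marker genes was 10781 and 10779 FPKM at day 2 and 884 and 856 at day 12 in L4440, and 11327 and 9666, and 826 and 796, in met-1-labelled worms. Nearly all of it came from the cuticle collagens col-19 and col-119, whereas the hypodermal factor lin-26 was at 49.3 and 30.5 FPKM at day 2 and 28.3 and 28.8 at day 12 in L4440 worms and did not pass. Controls went from 14734 to 479.8 and mutants from 19128 to 171 FPKM. The summed level of 5 intestine marker genes was 743 and 1074 FPKM at day 2 and 1337 and 1150 at day 12 in L4440, and 767 and 1066, and 1207 and 1542, in met-1-labelled worms, but it went from 1259 to 653 in controls and from 1415 to 822 in mutants. The summed germline and oocyte markers stood at 8.28 and 7.41 FPKM at day 2 and 26.9 and 20.97 at day 12 in L4440, and at 6.98 and 5.50, and 18.5 and 18.5, in met-1-labelled worms. They went from 9.60 to 22.1 in controls but from 27.0 to 16.0 in mutants. Of 3 tested, the germ granule helicase gene glh-1 rose in L4440 (log2 change 0.97 ± 0.23, SE, limma adjusted p = 0.0354) and the germline RNA-binding protein gene gld-1 in met-1-labelled worms (1.42 ± 0.24, limma adjusted p = 0.0112). In the 8 libraries most of the germline sum came from glh-1 and gld-1. The third tested gene, puf-5, did not pass, and the other list genes were too low to be tested. Of those, mex-5 and oma-1 were lower and cbd-1 was higher at day 12 in L4440, all below 1 FPKM. Summed sperm markers were at 4.87 to 12.7 FPKM at day 2 and 16.7 to 27.99 at day 12 in the 8 libraries. Of 3 tested, spe-11 rose, by 3.22 and 2.98 in the arms in that order, and the sperm protein gene msp-31 fell in both, with changes of −2.33 and −2.93 (largest limma adjusted p of these = 0.0223). The 3 body wall muscle marker genes in the tables, mostly the myosin gene unc-54, summed to 445 and 149.7 FPKM at day 2 and 144 and 236 at day 12 in L4440, and to 408 and 398, and 174 and 178, in met-1-labelled worms. They went from 445 to 87.6 in controls and from 750.1 to 95.1 in mutants, and neither of the 2 tested muscle transcripts was called (smallest limma adjusted p = 0.0527, for unc-54 in met-1-labelled worms). Of 7 neuron and 3 pharynx transcripts tested none was called (smallest limma adjusted p = 0.220). Their sums were 10.8 to 22.4 FPKM at day 2 and 20.2 to 39.1 at day 12 for neurons, and 7.59 to 35.5 and 28.5 to 48.4 for the pharynx. The part of all these markers in the family's change was not tested.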

How the data were processed

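Poly-A selected mRNA of whole animals was sequenced in 20 libraries, and 12 chromatin samples were not analysed here. The tools named, per the submitters' processing notes, are Cuffdiff, TopHat, TopHat2, BWA and CASAVA 1.8, with no role given for any. The sources used here do not give the genome build, the annotation, the strandedness or the scaling between libraries. Per the file headers, the isoform, mutant and control tables are in FPKM, with 1 value per age for both libraries together. The 8-library RNA interference table was deposited without a unit, and its values were taken as FPKM because Cuffdiff is listed. The log2 fold change and q-value of the isoform table are the authors' own, and the test behind them is not stated there. If strand was not used, overlapping genes cannot be told apart.

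Genes were matched by name to the RefSeq table of assembly WBcel235, which gave the same symbol for all 41 members and was used for names and gene order only. Every estimate not marked OK was dropped (1112 transcripts). Moderated two-sided tests of limma 3.58.1 (R 4.3.3; eBayes with a mean-variance trend) were run on log2(FPKM + 1), with each library centred to one median, 4 groups of 2 libraries in 1 fit, transcripts with FPKM of at least 1 in at least 2 of 8 libraries (18572), and Benjamini-Hochberg adjustment over all of them. The log2 scale with a pseudocount of 1 understates changes of low genes. The code was tested on simulated data. Depth is known only as relative reads, for the 8 libraries. Groups came from sample labels. Values were given by library for up to 14 members called in an age comparison with the largest mean change, the 6 with the highest mean FPKM, and members with a background role. Members, lists and settings were chosen with earlier results of these data known. Alternatives were scaling, pseudocount, filter, a replicate block and leaving out each library.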

Additional observations from a re-analysis of the deposited data

Results flagged for a closer look

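The age difference of gsto-1 was near 0 in controls and far below 0 in met-1 mutants. On the log2(FPKM + 1) scale it was 0.18 in control animals, from 11.9 to 13.7 FPKM, and −2.34 in met-1 mutants, from 34.4 to 5.98 FPKM. Each group has 1 deposited value for both libraries together, so that the difference was not tested.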

How the results depend on the processing

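Every member called in an age comparison kept its direction under each setting run. In L4440, 14 to 18 members fell under the scalings, pseudocounts and filters (17 in the settings used above), 20 with a replicate block and 12 to 18 without 1 library. In met-1-labelled animals 17 fell with the replicate block and 7 to 15 without 1 library. Members that rose, 1 in each arm, numbered 5 and 6 as deposited, 2 and 2 with equal summed FPKM, 2 and 2 with a mean FPKM of at least 5, and 0 in L4440 with no filter. They numbered 0 to 1 in L4440 and 0 to 2 in met-1-labelled animals without 1 library. Transcripts called, 3470 and 3841, became 5545 and 5835 as deposited, with 75.6% and 75.7% of them higher in place of 36.3% and 40.4%. They became 6763 and 7054 with no filter, and 2020 to 3243 and 1777 to 3621 without 1 library. The cause was not tested.

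Transcripts called between arms at day 12 (93 in the settings used above) numbered 14 with a mean FPKM of at least 5 and 11 to 170 without 1 library. At day 2, 28 became 3 and 1 to 37, and the difference of the age changes went from 69 to 7 and 10 to 73, and to 14 with a pseudocount of 0.1. No member was called in any of these. With a pseudocount of 0.1, members higher past 2-fold at day 12 became 4 in controls (from 2) and 2 in mutants (from 1). In mutants 0 remained among those with at least 5 FPKM. In mutants against controls they became 8 at day 12 (from 4) and 5 at day 2 (from 1). At day 12 they were 2 when centred and 2 at 5 FPKM or more. Transcripts past 2-fold at 5 FPKM or more were 1571 at day 12 (from 2865) and 1452 at day 2 (from 2827).

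Samples with the same replicate number share only that number in the labels. Their deviations from the group means correlated with r from −0.0597 to 0.13 over 18572 transcripts. With the replicate block as a term, members that rose in met-1-labelled animals were 2, and transcripts called between arms were 51 at day 12, 2 at day 2 and 7 for the difference of the age changes.

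Some genes without a call changed sign. In L4440 gst-43 was 0.52 as deposited, 0.0930 after quantile normalization, 0.12 with equal summed FPKM, 0.0425 with a mean of at least 5, and −0.11 to 0.0876 without 1 library. In met-1-labelled animals gst-43 was −0.0232 with a pseudocount of 0.1, −0.16 with no filter and −0.0489 to 0.0844 without 1 library. In L4440 gstk-2 was −0.0620 with no filter and −0.0419 to 0.10 without 1 library, and gst-14 was −0.26 to 1.08 without 1 library. In met-1-labelled animals gst-22 was 0.0860 as deposited and −1.25 to 0.47 without 1 library. Depth limits low genes most in the L4440 library with 0.356 relative reads.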

Other observations

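Family genes that the rule left out were measured in the RNA interference table and are given as values. The gene gst-10, whose product conjugates hydroxynonenal, a lipid peroxidation product, held 646 and 394 FPKM at day 2 and 18.6 and 25.1 FPKM at day 12 in L4440 worms and 695 and 432 FPKM at day 2 and 20.1 and 28.5 FPKM at day 12 in met-1-labelled worms. Every old library was far below every young one, with log2 changes of −5.01 ± 0.35 and −4.95 ± 0.35 (SE, limma adjusted p = 0.000967 and 0.000867), larger than the change of any of the 40 members in the same arm. Controls went from 655 to 31.4 FPKM and mutants from 572 to 36.8. None of the tested transcripts of gst-5, gst-21, gst-41 and gsto-2 passed in either arm (limma adjusted p from 0.106 to 0.889), and gst-18 was too low to be tested.

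The gene gst-40 was listed at 5.26 and 6.43 FPKM in the old L4440 libraries, at 0 in the other 6 libraries of that experiment and in the control and mutant tables, and at 4.51 and 4.48 FPKM in untreated animals at day 2 and day 12. Its estimate carries the status HIDATA, so that these zeros may be failed estimates.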
